A study of Homo sapiens with 6 samples.

Results

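The enzymes of purine and pyrimidine nucleotide metabolism were followed in Huh7 cells, a human hepatoma line, after transfection with an siRNA against ASGR1, the gene for the major subunit of the hepatocyte asialoglycoprotein receptor. The set was a written list of 43 genes, found by symbol among the 57905 Ensembl gene IDs of the deposited expression table. It holds ribonucleotide reductase, thymidylate synthesis, nucleoside kinases and deaminases, and the de novo and salvage enzymes of both purines and pyrimidines. The siASGR1 group held 3 libraries from Huh7 cells given siRNA to ASGR1, and the siControl group held 3 libraries from Huh7 cells given a scrambled siRNA, all harvested after 72 h in serum-containing medium. Expression was measured by RNA sequencing and is given as FPKM, fragments per kilobase of exon scaled to the depth of the library, so that levels of different genes can be set side by side. The model is limited to 1 hepatoma line, and the labels name 1 target for the siRNA without its sequence. The labels do not say whether the 3 libraries of a group came from separate cultures, so each p-value measures only the spread between libraries of a group, and that spread could be technical. In bulk RNA, fewer cells in a given state and less RNA per cell cannot be told apart.

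The libraries held between 18481000 and 19257000 fragments in siASGR1 cells and between 16326000 and 19333000 in siControl cells, as recovered from the steps between low FPKM values. ASGR1 itself had 4.60, 4.82 and 4.71 FPKM in siASGR1 cells, against 17.54, 17.56 and 16.90 FPKM in siControl cells, in the table of the whole series. In the authors' files of single libraries the same gene was listed at 14.65, 15.81 and 14.04 FPKM in siASGR1 cells, with the same siControl values, and no other gene differed between the tables. The targeted gene was therefore lower in all 3 siASGR1 libraries in both versions, but by different amounts. All 8 hepatocyte markers examined were called higher in siASGR1 cells, against 20.9% of all genes, in the test described below. Their summed level was 7470 to 7766 FPKM in siASGR1 libraries and 3959 to 4073 FPKM in siControl libraries. AFP alone averaged 3518 FPKM in siASGR1 cells and 2158 FPKM in siControl cells. The 4 leukocyte markers summed to 0.19 to 0.41 FPKM in siASGR1 libraries and 0.88 to 1.17 FPKM in siControl libraries. The endothelial markers VWF and CDH5 summed to 0.16 to 0.21 FPKM in siASGR1 libraries and 0.05 to 0.14 FPKM in siControl libraries. The part of these markers in the results for the nucleotide genes was not tested.

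Purine nucleotides are assembled on a ribose phosphate, first as IMP, which is then turned into AMP or GMP. Pyrimidines are made as a free ring that becomes UMP, from which the uridine, cytidine and thymidine nucleotides derive. Ribonucleotide reductase removes an oxygen from ribonucleotides to give the deoxynucleotides that DNA synthesis uses, and salvage enzymes return free bases and nucleosides to the pools. The liver is a major site of de novo purine synthesis and of pyrimidine breakdown, and dividing hepatoma cells draw on both de novo and salvage routes.

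Of the 43 genes, 40 reached 1 FPKM in at least 3 of the 6 libraries and were tested with limma on log2(FPKM + 1), with p-values adjusted over all 13568 genes tested. At an adjusted p under 0.05, 20 of the 40 rose in siASGR1 cells, 8 fell and 12 did not pass. Over all genes tested, 20.9% rose and 40.4% fell, with 61.3% called in either direction, so the share of nucleotide genes called (70%) lay near the background while the share that rose (50%) was above it. For 30 of the 40 genes (75%) the siASGR1 and siControl values did not overlap, against 67.3% of all genes tested. Called genes with a fitted log2 fold change of at least 1 in size were RRM2, NME1, ADSL, ADSS2 and TYMS (up) and CDA (down). Of all genes tested, 1.91% (up) and 3.71% (down) met the same rule. These shares are on log2(FPKM + 1), which understates the change of low genes, and are not shares of ratios of mean FPKM. The median log2 fold change was 0.19 over the 40 genes and -0.13 over all genes tested. The 43 genes together summed to 1038 to 1071 FPKM in siASGR1 libraries and to 894.2 to 908.9 FPKM in siControl libraries.

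The balance of higher and lower genes depended on how the libraries were scaled. Over all genes, 2839 rose and 5480 fell on the FPKM as deposited, against 4552 and 3440 after median-of-ratios scaling, which moved the median of all genes by 0.17 to 0.04 on the log2 scale. Under that scaling 23 nucleotide genes rose and 6 fell, and their median was 0.37. TK1 and UCK1, both called lower on the deposited FPKM, lost their call there.

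**Figure D1:**
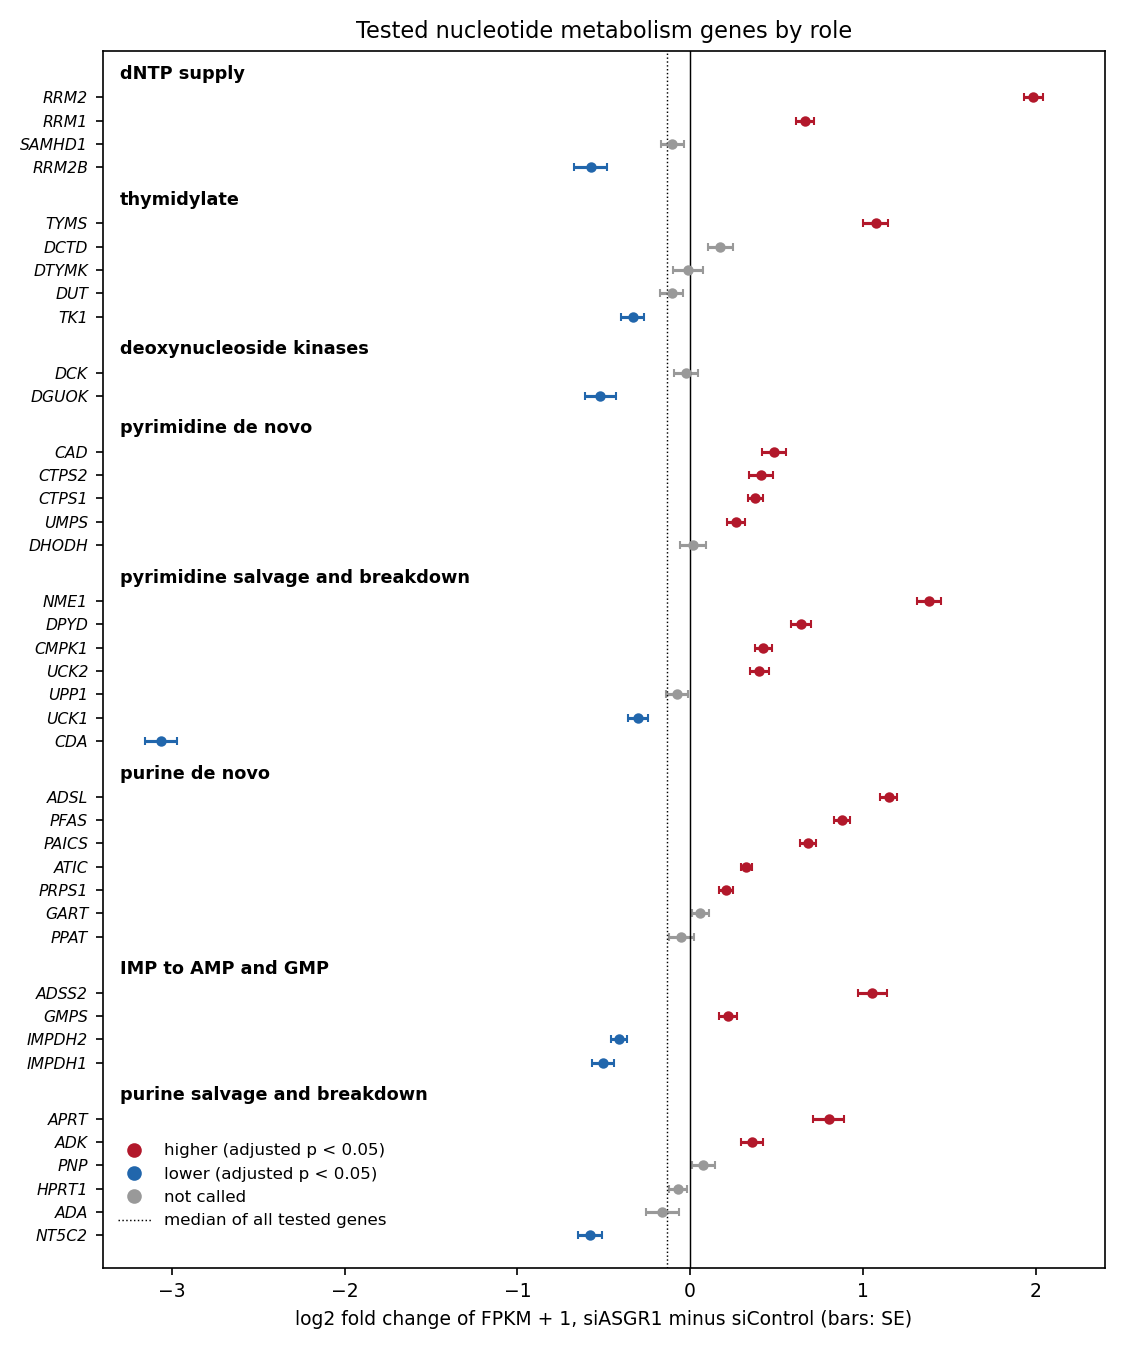
Log2 fold change (siASGR1 minus siControl, on log2(FPKM + 1), x axis) of the 40 tested nucleotide genes, grouped by role down the page, with bars of 1 standard error from limma and a dotted line at the median of all tested genes (-0.13). CDA at -3.06 and RRM2 at 1.99 lie farthest from 0, and every de novo gene that passed the test lies to the right of it.

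Ribonucleotide reductase, the enzyme that makes deoxynucleotides, changed at the level of all 3 of its genes, in both directions. With SAMHD1, described below, 3 of the 4 genes of this group were called (75%), against 61.3% of all genes tested. RRM2, the small subunit made in dividing cells, rose more than any other of the 40 genes, 4.12-fold. RRM1, the large subunit, rose 1.62-fold, whereas RRM2B, the alternative small subunit that serves resting cells and DNA repair, fell. The 250 bases before the first listed of the 2 RefSeq starts of RRM2 are shown because this gene had the largest rise; the capitals mark CCAAT, the core of the box bound by the factor NF-Y, and the window is chr2:10122489-10122738 on the plus strand of GRCh38.p14.
RRM2: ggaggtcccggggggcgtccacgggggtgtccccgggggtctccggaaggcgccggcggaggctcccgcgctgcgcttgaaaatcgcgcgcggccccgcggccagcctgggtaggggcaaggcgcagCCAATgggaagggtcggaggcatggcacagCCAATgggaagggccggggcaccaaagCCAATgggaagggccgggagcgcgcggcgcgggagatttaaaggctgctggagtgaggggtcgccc
The CCAAT letters stand 3 times on the plus strand within this stretch, and once in the window of the other start, which lies upstream.

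RRM2 (ENSG00000171848, chromosome 2, 10120698 to 10131419 on GRCh38) had 72.96, 72.58 and 71.76 FPKM in siASGR1 cells, against 17.26, 16.46 and 18.97 FPKM in siControl cells. The lowest siASGR1 library lay far above the highest siControl library, and the log2 fold change was 1.99 (SE 0.05, limma adjusted p = 1.75e-06). Another annotated gene, AC007240.1, shares 20.2% of the exon bases of RRM2, so reads there could belong to either. No level was listed for AC007240.1 in these data. RRM1 had 33.84, 32.16 and 30.72 FPKM in siASGR1 cells and 19.08, 20.14 and 20.64 FPKM in siControl cells. The groups of RRM1 did not overlap, and its log2 fold change was 0.67 (SE 0.05, limma adjusted p = 4.26e-05). RRM2B was the scarcest of the 3 subunit genes and had 2.94, 2.74 and 3.09 FPKM in siASGR1 cells, against 4.58, 4.34 and 5.69 FPKM in siControl cells. Every siASGR1 value of RRM2B lay under every siControl value, at 1.67-fold lower on average (log2 fold change -0.58, SE 0.09, limma adjusted p = 0.00153). SAMHD1, which breaks deoxynucleotide triphosphates down, had 4.05, 4.02 and 4.38 FPKM in siASGR1 cells and 4.16, 4.66 and 4.79 FPKM in siControl cells. Its groups overlapped and it did not pass the test (limma adjusted p = 0.214).

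In the thymidylate group, which turns dUMP into dTMP and onward, TYMS rose 2.16-fold while TK1 was 1.26-fold lower, and the other tested enzymes did not pass. TYMS is thymidylate synthase, the target of fluorouracil. The 250 bases before its RefSeq start are shown because it had the largest change of this group; the capitals mark TTTCCCGC read on the opposite strand, a letter string of the kind that E2F factors bind, and the window is chr18:657403-657652 on the plus strand of GRCh38.p14.
TYMS: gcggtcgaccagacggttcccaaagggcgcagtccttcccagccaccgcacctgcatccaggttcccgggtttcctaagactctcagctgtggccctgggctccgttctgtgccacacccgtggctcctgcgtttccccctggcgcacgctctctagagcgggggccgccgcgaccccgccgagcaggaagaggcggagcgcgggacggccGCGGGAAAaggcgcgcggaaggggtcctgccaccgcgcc
This is 1 match in the window, close to the start.

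TYMS (ENSG00000176890) had 42.55, 40.86 and 37.13 FPKM in siASGR1 cells, against 19.77, 19.01 and 16.94 FPKM in siControl cells. The groups stood well apart, with a log2 fold change of 1.07 (SE 0.07, limma adjusted p = 2.56e-05). ENOSF1, which lies on the opposite strand, shares 39.1% of the exon bases of TYMS, and the TruSeq RNA kit named in the labels does not mark strand, so reads of the pair cannot be told apart there. ENOSF1 itself had 4.35, 4.63 and 4.82 FPKM in siASGR1 cells and 3.13, 2.93 and 3.51 FPKM in siControl cells, a level well under that of TYMS in every library. TYMSOS, also on the opposite strand, shares 7.41% of the exon bases of TYMS. It had 8.27, 8.37 and 7.87 FPKM in siASGR1 cells and 6.94, 4.39 and 6.21 FPKM in siControl cells. TK1, the cytosolic thymidine kinase of the salvage route, had 53.71, 60.14 and 52.43 FPKM in siASGR1 cells and 74.32, 70.56 and 65.21 FPKM in siControl cells. The TK1 groups did not overlap (log2 fold change -0.33, SE 0.07, limma adjusted p = 0.00429), but the call was lost under median-of-ratios scaling (-0.13, adjusted p = 0.174). The mitochondrial kinase TK2 had 0.65 to 0.97 FPKM in siASGR1 cells and 0.79 to 0.91 FPKM in siControl cells and fell under the filter.

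DTYMK, which phosphorylates dTMP, had 21.2 to 26.91 FPKM in siASGR1 cells and 22.65 to 25.14 FPKM in siControl cells. DUT, the dUTPase that makes dUMP and keeps uracil out of DNA, had 8.73 to 10.35 FPKM in siASGR1 cells and 10.16 to 10.92 FPKM in siControl cells. Both ranges overlapped between the groups and neither gene passed the test (limma adjusted p = 0.912 for DTYMK and 0.211 for DUT). DUT has transcribed pseudogene copies, of which DUTP6 reached 3.98 FPKM, the highest of the 40 pseudogene symbols matched to 11 of the 43 genes, so its level is uncertain. DCTD, the dCMP deaminase that also feeds dUMP, had 4.89, 4.29 and 5.21 FPKM in siASGR1 cells and 4.12, 4.26 and 3.99 FPKM in siControl cells; the groups did not overlap, yet the test missed the threshold (limma adjusted p = 0.0699), which it passed without siASGR1 replicate 2 (adjusted p = 0.0184). Among the deoxynucleoside kinases, DGUOK, the mitochondrial deoxyguanosine kinase, had 20.87, 25.14 and 20.81 FPKM in siASGR1 cells and 35.52, 29.82 and 31.61 FPKM in siControl cells. All siASGR1 values of DGUOK lay under the siControl values, 1.45-fold lower on average (log2 fold change -0.52, SE 0.09, limma adjusted p = 0.00201). DCK, the cytosolic deoxycytidine kinase, had 9.19 to 10.89 FPKM in siASGR1 cells and 9.94 to 10.72 FPKM in siControl cells and did not pass (limma adjusted p = 0.771).

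De novo pyrimidine synthesis rose at 4 of its 5 genes (80%), by 1.22-fold to 1.48-fold, and none fell. Of all genes tested, 20.9% rose and 61.3% were called in either direction. CAD, the protein that carries the opening steps of the pathway, had 17.47, 17.15 and 16.86 FPKM in siASGR1 cells and 12.79, 12.58 and 10.63 FPKM in siControl cells (log2 fold change 0.49, SE 0.07, limma adjusted p = 0.000804). UMPS, which completes UMP, had 11.52, 11.04 and 11.29 FPKM in siASGR1 cells and 8.99, 8.83 and 9.86 FPKM in siControl cells. The groups of CAD and of UMPS did not overlap. CTPS1 and CTPS2, the synthases that make CTP from UTP, both rose. CTPS1 had 13.8, 13.88 and 14.71 FPKM in siASGR1 cells and 10.78, 10.7 and 10.45 FPKM in siControl cells, and CTPS2 had 3.06, 3.22 and 3.22 FPKM in siASGR1 cells and 1.93, 2.24 and 2.25 FPKM in siControl cells. Again no siASGR1 value reached down to the siControl range for either synthase (limma adjusted p = 0.000288 for CTPS1 and 0.00197 for CTPS2). The exception was DHODH, the mitochondrial enzyme between CAD and UMPS, with 4.15, 4.84 and 4.43 FPKM in siASGR1 cells and 4.39, 4.75 and 4.08 FPKM in siControl cells. Its values overlapped throughout (log2 fold change 0.02, SE 0.07, limma adjusted p = 0.848).

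Pyrimidine salvage and breakdown held both the largest fall and the second largest rise among the 40 genes. CDA, the cytidine deaminase that turns cytidine and deoxycytidine into their uridine counterparts, was 17.5-fold lower in siASGR1 cells. NME1, a nucleoside diphosphate kinase, rose 2.71-fold. The 250 bases before each RefSeq start are shown because these genes moved most in this group; in NME1 the capitals mark CCAAT, and CDA holds neither CCAAT nor another of the 5 strings searched within the bases printed. The windows are chr1:20588847-20589096 for CDA and chr17:51153309-51153558 for NME1, both on the plus strand of GRCh38.p14.
CDA: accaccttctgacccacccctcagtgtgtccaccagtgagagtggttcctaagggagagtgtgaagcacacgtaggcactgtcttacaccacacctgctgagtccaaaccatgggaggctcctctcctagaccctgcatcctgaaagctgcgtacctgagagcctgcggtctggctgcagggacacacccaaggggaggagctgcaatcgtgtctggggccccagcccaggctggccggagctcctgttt
NME1: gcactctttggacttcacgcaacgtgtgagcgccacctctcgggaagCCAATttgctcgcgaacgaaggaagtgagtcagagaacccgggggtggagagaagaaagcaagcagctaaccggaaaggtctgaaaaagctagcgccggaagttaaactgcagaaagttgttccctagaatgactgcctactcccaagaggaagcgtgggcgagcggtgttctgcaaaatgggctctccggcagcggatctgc
A TTTCCCGC match of CDA spans the start itself, from base -3 to base 5, and so lies partly outside the bases printed.

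CDA (ENSG00000158825, chromosome 1, 20588948 to 20618908 on GRCh38) had 0.67, 0.73 and 1.02 FPKM in siASGR1 cells, against 15.36, 13.47 and 13.42 FPKM in siControl cells. The siASGR1 mean was 5.73% of the siControl mean, and the groups were far apart. These levels stood for 12, 13 and 19 rebuilt reads in siASGR1 libraries and 286, 218 and 211 in siControl libraries, so the siASGR1 level carries the larger counting error. The log2 fold change was -3.06 on the log2(FPKM + 1) scale, which understates the change of a gene this low (SE 0.09, limma adjusted p = 2.03e-06). Fibroblast markers moved in the same comparison: of 4 markers 3 were tested, COL1A1 and COL1A2 fell and PDGFRA rose. COL1A1 averaged 0.027 FPKM in siASGR1 cells and 2.46 FPKM in siControl cells, and COL1A2 averaged 0.02 FPKM in siASGR1 cells and 1.51 FPKM in siControl cells. The 4 markers summed to 10.44 to 11.54 FPKM in siASGR1 libraries and 8.22 to 8.96 FPKM in siControl libraries, with DCN, which was not tested, at 0.01 FPKM on average in siASGR1 cells and 0.23 FPKM in siControl cells. Their part in the result for CDA was not tested.

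NME1 (ENSG00000239672, chromosome 17, 51153536 to 51162428 on GRCh38) had 42.71, 49.09 and 42.16 FPKM in siASGR1 cells and 16.84, 17.12 and 15.54 FPKM in siControl cells. The groups did not overlap (log2 fold change 1.38, SE 0.07, limma adjusted p = 8.12e-06). NME1 resembles its neighbour NME2 in sequence, so some reads could belong to either, and the split of reads between them was not examined. NME2 averaged 119.5 FPKM in siASGR1 cells and 133.0 FPKM in siControl cells and did not pass the test (limma adjusted p = 0.102), and the NME1-NME2 readthrough gene was listed at 0 in all 6 libraries. DPYD, which begins the breakdown of uracil and thymine and clears fluorouracil, had 12.97, 11.59 and 12.21 FPKM in siASGR1 cells and 7.76, 7.06 and 7.66 FPKM in siControl cells. It rose 1.64-fold with no overlap (log2 fold change 0.64, SE 0.06, limma adjusted p = 9.25e-05). CMPK1, the kinase for UMP and CMP, had 56, 53.86 and 57.06 FPKM in siASGR1 cells and 40.22, 39.58 and 43.99 FPKM in siControl cells, 1.35-fold higher with no overlap (limma adjusted p = 0.000315).

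The uridine-cytidine kinases moved in opposite directions. UCK2 had 9.24, 10.13 and 9.85 FPKM in siASGR1 cells and 6.8, 7.28 and 7.32 FPKM in siControl cells (log2 fold change 0.40, SE 0.05, limma adjusted p = 0.000558). UCK1 had 9.37, 9.92 and 9.02 FPKM in siASGR1 cells and 12.01, 12.42 and 11.14 FPKM in siControl cells (log2 fold change -0.30, SE 0.06, limma adjusted p = 0.00305). Neither kinase had overlapping groups, and the call on UCK1 was lost under median-of-ratios scaling (-0.11, adjusted p = 0.158). UPP1, the uridine phosphorylase, had 4.37 to 4.95 FPKM in siASGR1 cells and 4.72 to 5.06 FPKM in siControl cells and did not pass (limma adjusted p = 0.318).

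**Figure D2:**
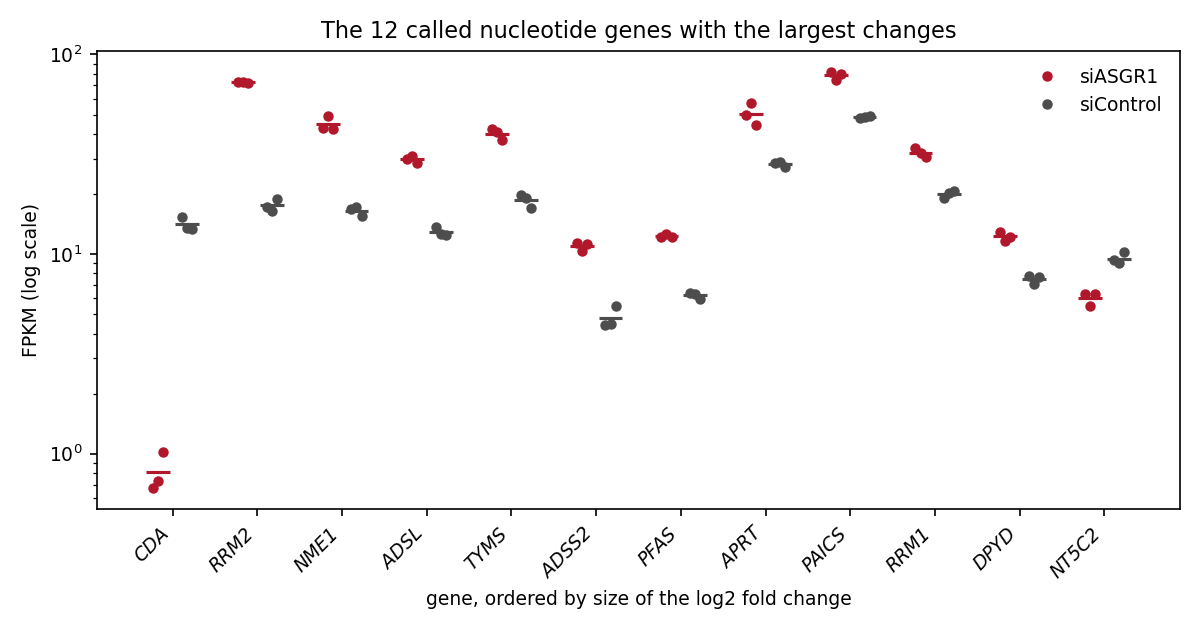
FPKM (y axis, log scale) of the 12 called nucleotide genes with the largest log2 fold change, ordered by its size along the x axis, in siASGR1 libraries (red, left) and siControl libraries (grey, right); points are libraries and horizontal bars are means of 3. The groups are separate for each gene, with CDA at 0.67 to 1.02 FPKM in siASGR1 cells and 13.42 to 15.36 FPKM in siControl cells. The choice of called genes with the largest changes makes such separation likely, and 67.3% of all genes tested did not overlap either.

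The de novo purine pathway rose at 5 of the 7 genes tested (71.4%), and none fell. Of all genes tested, 20.9% rose and 40.4% fell, with 61.3% called in either direction. The rise was uneven along the route: PPAT, the amidotransferase that commits ribose phosphate to purine synthesis, and GART, which carries several early steps, did not pass the test, while PRPS1 ahead of them and the other enzymes of the route did. ADSL and PFAS rose most, 2.31-fold and 1.98-fold. PPAT and PAICS are neighbours on chromosome 4 that are read in opposite directions from 1 short shared stretch, and the 136 bases between the RefSeq start of PPAT and the one of 3 PAICS starts that faces it closely are shown because only PAICS of the pair passed the test. The stretch is chr4:56435616-56435751 on the plus strand of GRCh38.p14, with PPAT to its left on the minus strand, PAICS to its right, and GGGCGG, the core of the GC box that Sp1 binds, in capitals.
PPAT-PAICS: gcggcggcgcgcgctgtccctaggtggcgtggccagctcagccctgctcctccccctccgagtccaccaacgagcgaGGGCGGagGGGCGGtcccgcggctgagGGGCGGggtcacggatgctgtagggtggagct
GGGCGG stands 3 times in this stretch, all on the plus strand.

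PPAT had 12.77, 11.24 and 12.4 FPKM in siASGR1 cells and 12.69, 11.48 and 13.68 FPKM in siControl cells. Its values overlapped between the groups (log2 fold change -0.05, SE 0.07, limma adjusted p = 0.58, and 0.14 with adjusted p = 0.119 after median-of-ratios scaling). PAICS, which acts in the middle of the pathway, had 82.1, 74.38 and 80.16 FPKM in siASGR1 cells and 47.89, 48.88 and 49.26 FPKM in siControl cells. All 3 siASGR1 values of PAICS were above all siControl values, 1.62-fold on average (log2 fold change 0.68, SE 0.05, limma adjusted p = 2.46e-05). The FPKM of PAICS divided by that of PPAT was 6.43, 6.62 and 6.46 in siASGR1 libraries and 3.77, 4.26 and 3.60 in siControl libraries, a ratio chosen after its values were seen and not tested.

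ADSL, adenylosuccinate lyase, which acts both in the de novo pathway and in the AMP branch, had 29.86, 31.09 and 28.63 FPKM in siASGR1 cells and 13.6, 12.67 and 12.47 FPKM in siControl cells. The groups did not overlap (log2 fold change 1.15, SE 0.05, limma adjusted p = 5.28e-06), and another annotated gene, AL022238.4, shares 18.9% of the exon bases of ADSL. No level was listed for AL022238.4 in these data. PFAS, the synthetase after GART's first steps, had 12.15, 12.57 and 12.17 FPKM in siASGR1 cells and 6.42, 6.28 and 5.97 FPKM in siControl cells. Its libraries were close together within each group and far apart between them (log2 fold change 0.88, SE 0.05, limma adjusted p = 1.00e-05). ATIC, which closes the ring to give IMP, had 64.01, 63.47 and 66.11 FPKM in siASGR1 cells and 51.11, 51.35 and 51.34 FPKM in siControl cells. It rose 1.26-fold without overlap (limma adjusted p = 0.000174). GART had 14.17 to 15.35 FPKM in siASGR1 cells and 13.62 to 14.72 FPKM in siControl cells and did not pass (limma adjusted p = 0.341), although it was called higher after median-of-ratios scaling (0.25, adjusted p = 0.00276). PRPS1, which makes the ribose phosphate donor PRPP, had 62.6, 59.95 and 63.11 FPKM in siASGR1 cells and 54.25, 51.63 and 54.73 FPKM in siControl cells, 1.16-fold higher with no overlap (limma adjusted p = 0.00361). Its paralog PRPS2 was listed at 0 in every library but siControl replicate 3, where 0.04 FPKM stood for 2 reads, and was not tested.

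**Figure D3:**
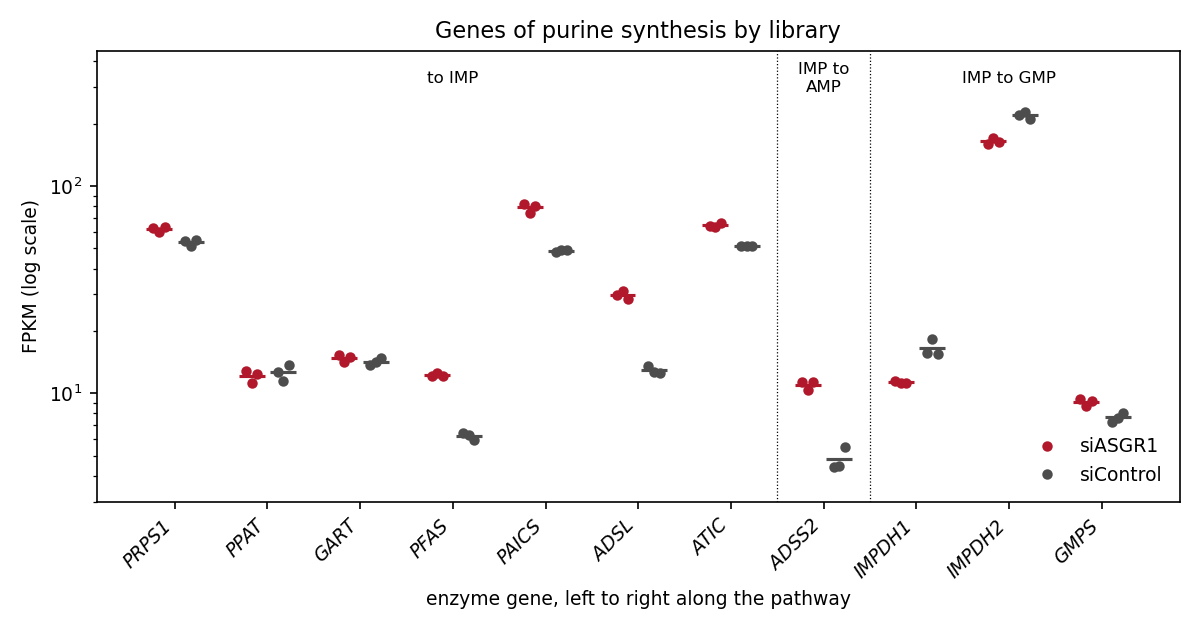
FPKM of the de novo purine and AMP and GMP branch genes in pathway order from left to right (y axis on a log scale), with siASGR1 libraries in red left of siControl libraries in grey and horizontal bars at the means of 3. PPAT and GART overlap between the groups, PFAS, PAICS, ADSL and ADSS2 stand higher in siASGR1 cells, and IMPDH1 and IMPDH2 stand lower.

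Past IMP, the AMP branch rose and the IMP dehydrogenases of the GMP branch fell. ADSS2, the adenylosuccinate synthetase that opens the route to AMP, rose 2.30-fold, with 11.36, 10.39 and 11.28 FPKM in siASGR1 cells and 4.43, 4.45 and 5.51 FPKM in siControl cells. The groups of ADSS2 did not overlap (log2 fold change 1.06, SE 0.08, limma adjusted p = 4.68e-05). IMPDH2, the main IMP dehydrogenase, which controls the flow to GMP, was the most abundant of the 43 transcripts, with 160.23, 170.43 and 163.89 FPKM in siASGR1 cells and 220.25, 228.1 and 210.68 FPKM in siControl cells. Every siASGR1 value lay under every siControl value, 1.33-fold lower (log2 fold change -0.41, SE 0.04, limma adjusted p = 0.000197). IMPDH1 had 11.46, 11.26 and 11.19 FPKM in siASGR1 cells and 15.72, 18.28 and 15.49 FPKM in siControl cells, also with no overlap and 1.46-fold lower (log2 fold change -0.50, SE 0.07, limma adjusted p = 0.000491). GMPS, which completes GMP, went the other way, with 9.34, 8.68 and 9.18 FPKM in siASGR1 cells and 7.28, 7.61 and 8.07 FPKM in siControl cells (1.18-fold higher, limma adjusted p = 0.0103). The FPKM of ADSS2 divided by that of IMPDH2 was 0.0709, 0.0610 and 0.0688 in siASGR1 libraries and 0.0201, 0.0195 and 0.0262 in siControl libraries; this ratio too was chosen after its values were seen and was not tested.

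Purine salvage and breakdown was mixed, with 2 genes higher, 1 lower and 3 not passing among the 6 tested. The share called, 50%, lay under the 61.3% of all genes tested. APRT, which returns adenine to AMP, rose 1.78-fold, with 49.75, 56.9 and 44.12 FPKM in siASGR1 cells and 28.57, 29.08 and 27.18 FPKM in siControl cells (log2 fold change 0.80, SE 0.09, limma adjusted p = 0.000204). The siASGR1 libraries of APRT were spread more widely than the siControl libraries but stayed above them. ADK, adenosine kinase, had 12.6, 10.68 and 11.71 FPKM in siASGR1 cells and 8.93, 8.58 and 9.05 FPKM in siControl cells, 1.32-fold higher with no overlap (limma adjusted p = 0.00216). NT5C2, a cytosolic nucleotidase that prefers IMP and GMP, had 6.34, 5.47 and 6.29 FPKM in siASGR1 cells and 9.32, 9 and 10.19 FPKM in siControl cells. It was 1.58-fold lower with no overlap (log2 fold change -0.58, SE 0.07, limma adjusted p = 0.000359). CNNM2 shares 36.7% of the exon bases of NT5C2, and had 4.07, 3.88 and 4.17 FPKM in siASGR1 cells and 4.78, 4.71 and 4.44 FPKM in siControl cells.

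HPRT1, the salvage enzyme for hypoxanthine and guanine, had 22.57 to 24.09 FPKM in siASGR1 cells and 23.51 to 26.18 FPKM in siControl cells, and did not pass (limma adjusted p = 0.294). PNP, which splits purine nucleosides, had 23.74 to 25.73 FPKM in siASGR1 cells and 21.86 to 25.76 FPKM in siControl cells, and did not pass on the deposited FPKM (limma adjusted p = 0.342), but did after median-of-ratios scaling (adjusted p = 0.0134). ADA, adenosine deaminase, was low, with 0.96, 1.1 and 1.07 FPKM in siASGR1 cells and 1.45, 1.21 and 1.2 FPKM in siControl cells; the groups did not overlap but the test missed the threshold (limma adjusted p = 0.177). XDH, the enzyme that ends purine breakdown in urate, had at most 0.08 FPKM in siASGR1 cells and at most 0.06 FPKM in siControl cells and was not tested.

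Several reactions have a pair of paralogous enzymes, and for 4 of the 6 pairs examined the log2 ratio of FPKM + 1 within the pair did not overlap between the groups. Of all genes tested singly, 67.3% did not overlap either. No such share was computed for ratios of other gene pairs, so the count is no result about paralogs. Which pairs stood apart depended in part on the added 1: on the plain share of the summed FPKM, the TK and PRPS pairs overlapped and the CTPS pair did not. RRM2 took 95.9% to 96.4% of the summed FPKM of RRM2 and RRM2B in siASGR1 libraries and 76.9% to 79.1% in siControl libraries. The log2 ratio of RRM2 to RRM2B, on FPKM + 1, was 4.23 ± 0.07 in siASGR1 cells and 1.67 ± 0.08 in siControl cells (SD, n = 3 each; two-sided exact permutation test p = 0.1, adjusted over 6 pairs 0.15). With 3 libraries against 3 this test cannot go below 0.1, so none of the pairs could pass on it. UCK1 took 47.8% to 50.3% of the UCK1 and UCK2 sum in siASGR1 libraries and 60.3% to 63.8% in siControl libraries, a difference in log2 ratio of -0.70 (exact permutation p = 0.1, adjusted 0.15). TK1 over TK2 differed by -0.34 (exact permutation p = 0.1, adjusted 0.15), with TK2 under 1 FPKM in all libraries; TK1 took 98.2% to 98.8% of the plain FPKM of that pair in siASGR1 libraries and 98.8% to 98.9% in siControl libraries. On FPKM + 1 the ratios of the IMP dehydrogenases and of the CTP synthases overlapped between the groups: the log2 ratio of IMPDH1 to IMPDH2 was -3.75 in siASGR1 cells and -3.66 in siControl cells (exact permutation p = 0.2, adjusted 0.24), and that of CTPS1 to CTPS2 was 1.86 in siASGR1 cells and 1.89 in siControl cells (exact permutation p = 0.9, adjusted 0.9). With 0.1 added in place of 1, the CTPS1 to CTPS2 difference was -0.14 (exact permutation p = 0.1), and CTPS1 took 81.2% to 82.0% of the plain FPKM of the pair in siASGR1 libraries and 82.3% to 84.8% in siControl libraries. PRPS1 over PRPS2 differed by 0.22 (exact permutation p = 0.1, adjusted 0.15), but with PRPS2 at or near 0 this follows PRPS1 alone. Within the reductase, the FPKM of RRM2 divided by that of RRM1 was 2.16, 2.26 and 2.34 in siASGR1 libraries and 0.905, 0.817 and 0.919 in siControl libraries, again chosen after its values were seen and not tested.

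**Figure D4:**
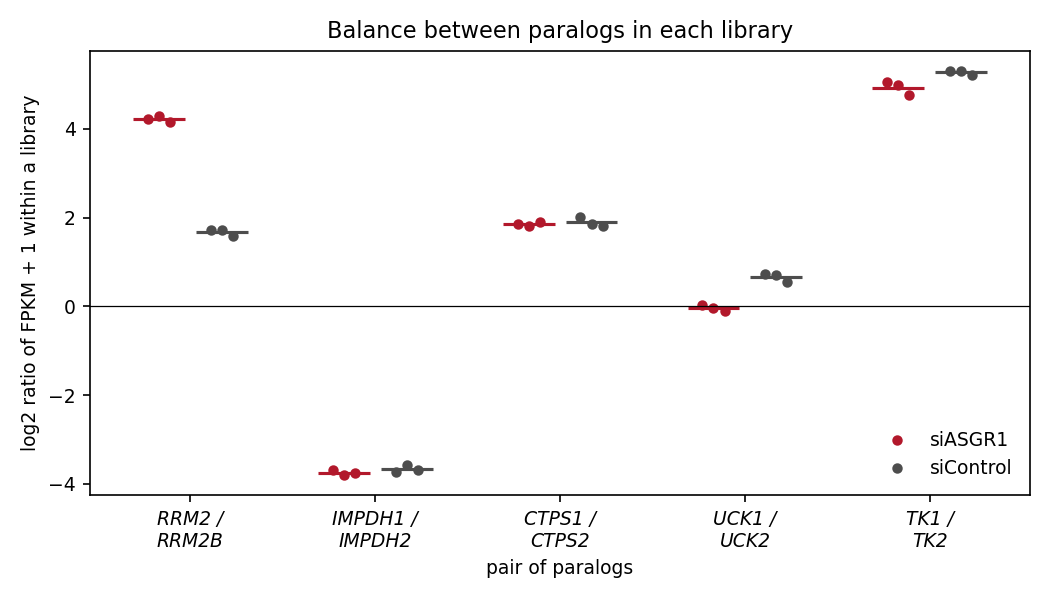
Log2 ratio of the FPKM + 1 of 5 pairs of paralogs in each library (y axis; PRPS1 over PRPS2 is left out), siASGR1 in red left of siControl in grey, with horizontal bars at the means of 3. RRM2 over RRM2B stands at 4.23 on average in siASGR1 cells and 1.67 in siControl cells, and CTPS1 over CTPS2 overlaps between the groups on this scale, though not on plain FPKM.

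A list of 70 other nucleotide genes (further kinases, nucleotidases, NUDIX enzymes and ecto-enzymes) was examined beside the 43. Of the 48 tested, 20 rose, 11 fell and 17 did not pass, and their median log2 fold change was 0.01. The share called, 64.6%, lay near that of all genes tested (61.3%), with 41.7% higher and 22.9% lower against 20.9% and 40.4% of all genes. After median-of-ratios scaling 27 of the list rose and 7 fell, where 4552 of all 13533 genes rose and 3440 fell. Among those with the smallest adjusted p, NT5E, the surface enzyme that makes adenosine from AMP, averaged 19.3 ± 0.43 FPKM in siASGR1 cells and 13.0 ± 0.27 FPKM in siControl cells (SD, n = 3 each; limma adjusted p = 4.23e-05). ITPA, which removes inosine triphosphate, averaged 16.9 ± 0.82 FPKM in siASGR1 cells and 9.92 ± 0.65 FPKM in siControl cells (limma adjusted p = 6.42e-05). AK4 and NME4, mitochondrial nucleotide kinases, rose 1.52-fold and 1.71-fold, and DERA, the deoxyribose phosphate aldolase, rose 1.44-fold. ENTPD4 and ENTPD2, which hydrolyse nucleoside di- and triphosphates, were 2.11-fold and 1.70-fold lower, and NME7 was 2.03-fold lower.

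A list of 15 transcription regulators linked to these enzymes, with 14 tested, gave 3 higher, 6 lower and 5 not passing, against 5 higher and 5 lower after median-of-ratios scaling. These shares, 21.4% higher and 42.9% lower, lay near those of all genes tested (20.9% and 40.4%), so the counts are no result about the regulators as a list. E2F1, E2F2, E2F4 and E2F6 fell. E2F1 averaged 26.0 ± 0.56 FPKM in siASGR1 cells and 42.0 ± 3.90 FPKM in siControl cells, and E2F2 averaged 3.25 ± 0.09 FPKM in siASGR1 cells and 8.37 ± 0.67 FPKM in siControl cells (SD, n = 3 each). TFDP1, an E2F partner, rose 1.23-fold, and E2F8 was 1.17-fold higher (limma adjusted p = 0.0412). The E2F8 call was lost on leaving out siASGR1 replicate 1 or 3 (adjusted p = 0.13 and 0.108) or siControl replicate 1 or 2 (0.123 and 0.0909). MYCN rose 1.36-fold and MAX, the partner of MYC proteins, was 2.08-fold lower. MYC, named although it did not pass, averaged 10.4 FPKM in siASGR1 cells and 11.1 FPKM in siControl cells (limma adjusted p = 0.263). ATF4, which drives amino acid and folate enzyme genes under stress, was 1.22-fold lower, a call lost under median-of-ratios scaling (adjusted p = 0.222).

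Genes of the S phase of the cell cycle moved in the same comparison as ribonucleotide reductase and TYMS. Of 14 listed, 13 were tested, 9 rose, 3 fell and 1 did not pass, with a median log2 fold change of 0.45; of all genes tested 20.9% rose and 40.4% fell. MCM7 rose 1.68-fold and MCM4 1.56-fold, both parts of the replicative helicase, and CDT1, CCNE1 and SLBP were lower. None of the 3 was called lower after median-of-ratios scaling, where 11 of the list and 4552 of all 13533 genes rose, and 1 or 2 were called lower with any single library left out. The summed level of the list was 646.3 to 671.8 FPKM in siASGR1 libraries and 478.0 to 500.5 FPKM in siControl libraries. The part of these genes, and of the share of cells in S phase, in the results for RRM2, RRM1 and TYMS was not tested. Other deoxynucleotide and thymidylate genes did not rise with RRM2, RRM1 and TYMS on the deposited FPKM. RRM2B and TK1 were called lower, with the TK1 call lost under median-of-ratios scaling, and SAMHD1, DTYMK, DUT and DCTD did not pass.

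Promoter letters were searched on both strands in windows from 250 bases before to 50 after each RefSeq start, with 59 windows of 40 of the 43 genes set beside 35116 windows of all genes. TTTCCCGC was found in 4 of the 59 windows (6.78%), against 1.63% of all windows, in CDA, DUT, PRPS2 and TYMS. TTTGGCGC was found in 3 windows (5.08%), against 0.652% of all windows, in DCK, DUT and GART. Of these 6 genes TYMS rose, CDA fell, DUT, DCK and GART did not pass and PRPS2 was not tested. CACGTG, the E-box that MYC and MAX bind, was found in 6 windows (10.2%), against 7.26% of all windows. NME1, PAICS and ATIC rose among its genes, and PPAT, DHODH and DCK did not pass. The CACGTG of PPAT and that of PAICS are the same site, counted in both of their windows. CCAAT was found in 32.2% of the windows of the set and 34.6% of all windows, and GGGCGG in 69.5% of the windows of the set and 44.95% of all windows. GC-rich strings overlap one another and follow the base composition of a window. The windows of 1 gene overlap, as do those of PPAT and PAICS, so these shares are a description with no test.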

How the data were processed

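RNA was sequenced from 6 Huh7 libraries. The authors deposited FPKM, rounded to 2 decimals; per the submitters' processing notes the tools included HISAT2 2.0.1, cutadapt 1.9.1 and bcl2fastq 2.17.1.14, with the build hg19. Not given in the sources used here are the counting program, the annotation and the strand setting. One table is named as counts but holds FPKM, so a count test was not used as the main test.

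Genes that reached 1 FPKM in 3 or more libraries were tested with limma 3.58.1 (R 4.3.3) on log2(FPKM + 1), two-sided, with the group as the only term, a prior that follows expression and Benjamini-Hochberg adjustment over 13568 genes. Fold changes given as "-fold" are ratios of mean FPKM; log2 fold changes are from the fit, and understate changes of low genes. Depth was recovered from the steps of low FPKM with GENCODE 29 exon lengths; between 94.5% and 95.4% of the values examined came out as whole reads, where chance would give 9.02% to 9.82%. That share was the target of the fit and so is no independent check. On the rebuilt reads, pairs of libraries of 1 group differed by 2.58 to 5.64 in chi-square per degree of freedom, so none agreed within sampling noise. Coordinates of genes are from GENCODE 29 on GRCh38 and promoter sequences from RefSeq on GRCh38.p14; the labels' build for the FPKM is hg19. Symbols were found for 39538 IDs.

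The genes and lists were chosen with earlier results of these data known. All 43 genes could be named. Per-library values were planned for 16 genes set by role, of which GART and HPRT1 are given as ranges. They were also given for the 12 called genes with the largest log2 fold change, and for others where the groups did not overlap. Of the list of other nucleotide genes, the 8 with the smallest adjusted p were named, and of the regulators those that passed. Other genes named were chosen after their values were seen. Regulators that did not pass are only counted, apart from MYC, and 1 further gene is not reported here. limma was tested on simulated data in which few genes changed and all genes shared 1 setting of the spread. These data differ from that, so the simulation is no check of the calls made here. Alternatives were 3 scalings, other pseudocounts, filters, thresholds and priors, a replicate block, the files of single libraries and leaving out each library. limma-voom on rebuilt reads was added after seeing the data.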

Additional observations from a re-analysis of the deposited data

How the results depend on the processing

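The count of nucleotide genes that rose was 19 to 25 and the count that fell 6 to 8 under the alternatives run, against 20 and 8. Of 673 values, 634 kept their direction and their side of the threshold. The 39 that did not belonged to 14 genes, of which TK1 and UCK1 were the only ones called on the deposited FPKM. The tally is no measure of stability, because many of the 673 values could not change direction. The files of single libraries differ only in ASGR1, and another filter or prior, or the replicate block, leaves a fold change as it was. Under median-of-ratios scaling 28 of the 40 genes kept both, and 28 under upper-quartile scaling. TK1 also lost its call under upper-quartile scaling (-0.11, adjusted p = 0.265), as did UCK1 (-0.09, adjusted p = 0.25).

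Scaling turned the direction of genes that had not passed. On the log2 scale, median-of-ratios gave 0.063 for SAMHD1, 0.18 for DTYMK, 0.080 for DUT, 0.16 for DCK, 0.094 for UPP1, 0.14 for PPAT, 0.13 for HPRT1 and 0.11 for MYC. Upper-quartile scaling gave 0.083 for SAMHD1, 0.21 for DTYMK, 0.10 for DUT, 0.18 for DCK, 0.11 for UPP1, 0.16 for PPAT, 0.15 for HPRT1 and 0.13 for MYC. Quantile normalization gave 0.072 for SAMHD1, 0.012 for DTYMK, 0.071 for DCK, 0.095 for UPP1, 0.026 for PPAT, 0.056 for ADA and 0.0047 for MYC. Upper-quartile scaling moved the median of all genes by 0.19 and quantile normalization by 0.13. DCTD, GART and PNP passed under median-of-ratios and upper-quartile scaling (adjusted p = 0.0042, 0.00276 and 0.0134 under the first), and DCK and HPRT1 under upper-quartile scaling (0.0393 and 0.0486). DCTD also passed under quantile normalization and without siASGR1 replicate 2 (adjusted p = 0.0184).

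Leaving out 1 library gave -0.107 to 0.058 for DTYMK, -0.066 to 0.045 for DCK, -0.030 to 0.063 for DHODH and -0.112 to 0.0054 for PPAT, and -0.0697 to 0.0255 for the log2 ratio of CTPS1 to CTPS2. E2F8 was not called without a filter (adjusted p = 0.0868). Of the regulators, 3 rose on the deposited FPKM, 5 after median-of-ratios scaling and 6 after upper-quartile scaling.

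Libraries with the same number did not deviate together (r = -0.019, 0.002 and 0.012). With the replicate number as a block, 20 nucleotide genes rose and 8 fell, and the E2F8 call was lost (adjusted p = 0.0693). For the RRM2 to RRM2B ratio, the paired exact permutation test gave p = 0.25, the smallest possible with 3 pairs. Depth limits CDA, TK2, ADA, PRPS2 and XDH most, where few reads stand behind a value.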
